A study of Mus musculus with 20 samples.

Results

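Neuro2A (N2A) is a cell line from a mouse neuroblastoma, a tumor of the embryonic neural crest. Neural crest cells leave the dorsal neural tube and give rise, among others, to the sympathetic neurons and the chromaffin cells of the adrenal medulla, which make catecholamines. Along that sympathoadrenal path the transcription factors PHOX2A, HAND2, GATA2, GATA3 and ISL1 are switched on while early crest factors such as SOX10 and FOXD3 are switched off, and N2A cells keep dividing while they carry many neuronal genes. Described here are the cells that saw no laser light, as the level of each gene, the gene classes that hold the transcripts, the genes of neural crest and neuronal identity, and the transcript forms that dominate.

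The series holds 20 polyA RNA-seq libraries of N2A cells from 2 batches, in which whole wells of multi-well plates were scanned with a femtosecond laser or left unexposed. The members were chosen by label and not by any measured value, as the 3 unexposed libraries of batch 1, titled B1_NC. The 15 libraries of exposed cells were not used, and the 2 unexposed libraries of batch 2, titled B2_NC, are given beside the members as values only. All of these cells were grown in DMEM with serum, were not transfected or otherwise treated, and come from a single established line. The study's methods describe 3 wells of unexposed cells, and the labels do not say whether the wells were separate cultures, so each SD below measures the spread between these libraries, which may be technical. The libraries held about 8322570, 8257770 and 6460010 estimated reads.

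The 3 marker genes fixed for the cells were all present. Tubb3, the neuron-specific class III beta-tubulin, stood at 681, 647 and 633 TPM, a measure of transcript number that is corrected for transcript length and scaled to the same total in each library. Elavl4, the neuronal RNA-binding protein HuD, stood at 111, 95.7 and 94.95 TPM. Mki67, which encodes the Ki-67 protein of cycling cells, stood at 111, 113 and 113 TPM. A gene at 1 TPM or more in the mean of the 3 libraries is called present below. Of the 34083 genes measured, 12479 (36.6%) were present, and of 21855 protein-coding genes 11583 (53%), with 12288, 12485 and 12672 genes present in the single libraries. The present protein-coding genes had a median of 23.4 TPM and quartiles of 8.05 and 58.2 TPM. Altogether 8445 genes reached 10 TPM, 1773 reached 100 TPM and 163 reached 1000 TPM, whereas 14505 had no read in any of the 3 libraries.

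Each gene was counted in 1 class, and protein-coding genes outside the named classes held 61.5% ± 0.111 of the TPM (SD, n = 3, as for each ± below) and 79.3% ± 0.0980 of the estimated reads. The 100 genes with the highest mean held 27.0% ± 0.249 of all TPM, and 431 genes held 50% of it. The 83 cytosolic ribosomal protein genes alone held 13.6, 13.8 and 13.7% of the TPM in the 3 libraries. The 13 mRNAs encoded by mitochondrial DNA held 4.75, 4.11 and 4.59%, the lowest in library 2, and 35 cytoskeletal genes held 3.08% ± 0.0987. Chaperones held 2.43% ± 0.0242, translation factors 2.39% ± 0.0290 and nuclear genes of oxidative phosphorylation 2.21% ± 0.0502. The 38 proliferation genes held 0.583% ± 0.00920, and the 25 pan-neuronal genes that were not counted in another class held 0.413% ± 0.00333. These are shares of molecules after division by transcript length, and the ribosomal protein genes, whose mRNAs are short, held 4.45% ± 0.0973 of the estimated reads. Rps23-ps1 and Rps12-ps3, named as copies of ribosomal protein genes and sharing their sequence with other genes, were counted in other classes. The ribosomal share thus also depends on how reads were split between copies.

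**Figure D1:**
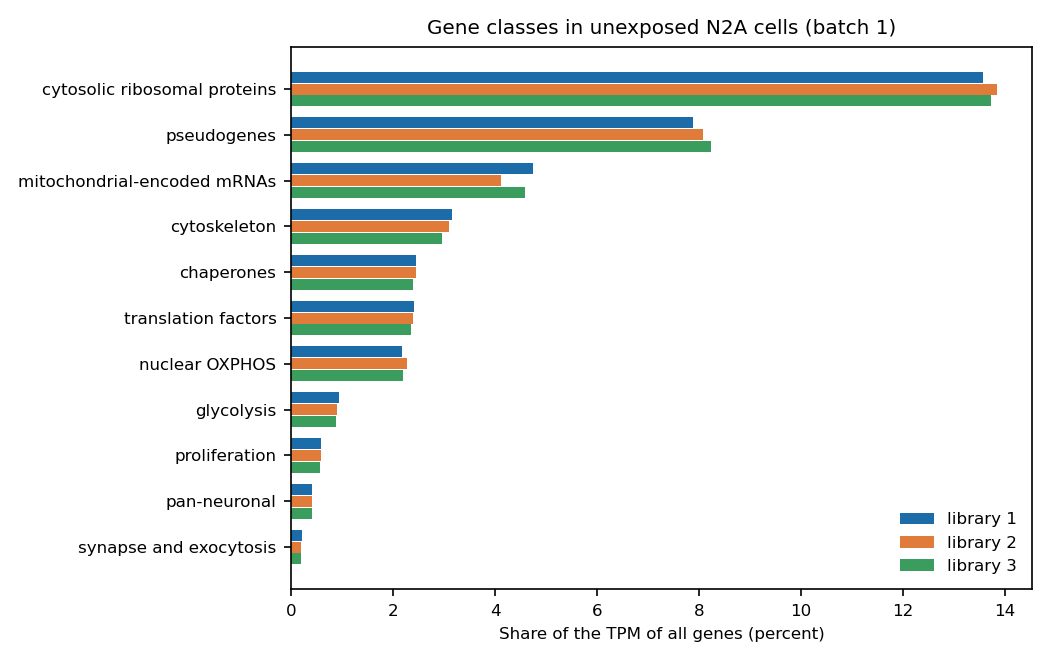
Share of the TPM of all genes (percent, horizontal axis from 0) held by 11 gene classes (vertical axis, without the other protein-coding genes) in each of the 3 unexposed batch 1 libraries (1 bar per library). Cytosolic ribosomal proteins hold 13.6 to 13.8%, and mitochondrial-encoded mRNAs are lowest in library 2 at 4.11%.

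The nuclear gene with the highest level was Eef1a1, the elongation factor that brings tRNAs to the ribosome, at 8410, 8328 and 8005 TPM. It was followed by Actg1 and Actb, the cytoplasmic actins, at 7380 ± 323 and 4498 ± 337 TPM, with Rpl41 (6141 ± 505 TPM) and Ppia (5921 ± 325 TPM) between them. Actg1 was above Actb in each library, by 1.64 ± 0.0647 times. Of the 31-base words of Actg1 and Actb, 61.0% and 76.4% were unique to the gene. In the 2 libraries of batch 2 Actg1 stood at 7208 and 6055 TPM and Actb at 11496 and 4231 TPM. The other nuclear protein-coding genes of the first 15 included Rpl32, Rps12-ps3, Ptma, Rps24, Rplp1, Rpl13, Hsp90ab1, Rpl11 and Rpl8, from 3980 TPM down to 3057 TPM. Rps12-ps3 is annotated as protein-coding under the name of a pseudogene, and none of its 31-base words is unique to it. Of the mitochondrial mRNAs, mt-Atp6 and mt-Atp8, subunits of ATP synthase, stood at 7322 ± 576 and 5454 ± 619 TPM. The cytochrome oxidase mRNAs mt-Co2 and mt-Co3 stood at 5339 ± 822 and 4602 ± 534 TPM, and mt-Cytb of complex III at 4788 ± 353 TPM. Only 0.461% of the 31-base words of mt-Atp6, 0.133% of those of mt-Co3 and none of those of mt-Co2 were unique to the gene. In the 2 libraries of batch 2 mt-Co3 stood at 286 and 701 TPM and mt-Atp6 at 3074 and 7329 TPM. Gm28438, a nuclear pseudogene on chromosome 1 with 0.952% unique words, was given 4385, 3942 and 3870 TPM.

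Sequence shared between a gene and its copies limits which levels can be read, so genes with fewer than 95% unique 31-base words were treated as sharing reads. Pseudogenes held 8.07% ± 0.177 of the TPM, and 887 of 11671 were present. The leading ones, Rps23-ps1 (4494 ± 144 TPM), Gm28438 (4066 ± 279 TPM), Gm10275 (2974 ± 11.9 TPM) and Rpl27-ps3 (2639 ± 53.7 TPM), had at most 3.97% unique words, so that their reads cannot be told apart from those of their relatives. Gm10123, Gm15500, Gm7536, Gm6472, Gm10163 and Rpl31-ps8 made up the rest of the first 10 genes outside the protein-coding class, between 2571 and 1791 TPM. Of the 163 genes at 1000 TPM or more, 16 did not share reads. They included Rps3 and Rack1 of the ribosome, the intermediate filament gene Vim, the galectin Lgals1, the beta-tubulin Tubb5, the actin-binding profilin Pfn1, the chaperonin subunit Cct2 and the neuronal deubiquitinase Uchl1. Rack1 stood at 1807, 1841 and 1815 TPM and Lgals1 at 1391, 1395 and 1368 TPM, with little spread between libraries.

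Pan-neuronal genes were present with few exceptions. Of 28 listed, 23 were present and 12 reached 100 TPM, against 53% and 7.65% of all protein-coding genes, with a median of 89.3 TPM. Uchl1, a deubiquitinase abundant in neurons, stood at 1162, 1213 and 1202 TPM, the rank of 106 among nuclear protein-coding genes. Prph, the intermediate filament peripherin of peripheral neurons, stood at 824, 763 and 868 TPM and thus above Tubb3 in each library. The microtubule regulator Stmn2 (283 ± 4.15 TPM), the growth-cone genes Dpysl3 (355 ± 13.5 TPM) and Gap43 (254 ± 19.98 TPM) and the tau gene Mapt (87.1 ± 7.48 TPM) were also abundant. The 3 neuronal members of the ELAV family were all present, Elavl4 at 100.4 ± 8.83, Elavl2 at 91.5 ± 13.8 and Elavl3 at 48.4 ± 1.70 TPM. Elavl4 and Elavl2 overlapped between libraries though Elavl4 was the higher in each, and both were above Elavl3 in every library.

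The intermediate filaments split the list. Vim, of mesenchymal and progenitor cells, stood at 1817, 1778 and 1819 TPM, and Prph was 0.453 ± 0.0241 times that level. Ina, which encodes alpha-internexin, stood at 96.7 ± 4.51 TPM, lower than Prph by 8.47 ± 0.564 times. Of the neurofilament triplet, the heavy subunit Nefh stood at 48.1, 45.7 and 47.3 TPM. The light subunit Nefl had 1, 2 and 0 estimated reads in the 3 libraries and the medium subunit Nefm 2.1 reads in all, whereas Nefh had between 771 and 986. Nes, the progenitor filament nestin, stood at 11.5 ± 1.91 TPM. Also close to 0 were Dcx, the doublecortin of migrating neurons (0.0967 ± 0.0974 TPM), and Rbfox3, which encodes the NeuN antigen of mature neurons (0.0470 ± 0.0814 TPM).

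Genes of synapses and exocytosis, a list of vesicle, fusion and postsynaptic genes, were present in 27 of 31 cases (87.1%, against 53% of all protein-coding genes), with a median of 38.7 TPM. The granins of dense-core vesicles led the list. Chgb, chromogranin B, stood at 361, 344 and 360.2 TPM, Chga at 233, 214 and 251 TPM and Scg2, secretogranin II, at 221, 213 and 226 TPM. The complexin Cplx1, a clamp of vesicle fusion, stood at 183 ± 12.1 TPM, and the prohormone-processing carboxypeptidase Cpe at 106 ± 3.88 TPM. The core fusion machinery was lower, with Snap25 at 91.2 ± 7.17, Vamp2 at 50.4 ± 3.86 and Stx1a at 32.4 ± 2.44 TPM. The prohormone convertases that act with CPE were not called present, Pcsk2 at 0.506 ± 0.229 TPM and Pcsk1 at 0.0509 ± 0.0882 TPM. The active-zone scaffold Pclo stood at 0.0285 ± 0.0179 TPM and the vesicle protein gene Sv2b had no read.

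Sympathoadrenal regulators were present in 17 of 22 cases (77.3%, against 53% of all protein-coding genes), with a median of 26.2 TPM. The factors that define the path led the list. Hand2, a basic helix-loop-helix factor of sympathetic neurons, stood at 307, 299.8 and 315 TPM. Its relative Hand1 had 2, 4 and 0 estimated reads. Phox2a, a paired homeobox factor of noradrenergic neurons, stood at 193, 182 and 191 TPM. Gata2 stood at 187 ± 4.36 TPM and Gata3, the other zinc-finger factor of the path, at 19.5 ± 0.747 TPM, a ratio of 9.62 ± 0.557. Sox4 (93.3 ± 4.85 TPM), Lmo1, a LIM-only cofactor (93.1 ± 8.91 TPM), and Insm1 (57.04 ± 3.03 TPM) followed, and Isl1 stood at 27.2, 18.7 and 29.5 TPM. Tlx2 had no read in any library.

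Of 25 neural crest genes 12 were present (48%, near the 53% of all protein-coding genes), with a median of 0.635 TPM. Those at high level were the Id genes, inhibitors of helix-loop-helix factors (Id3 at 273 ± 12.9, Id1 at 199 ± 12.2 and Id2 at 138 ± 4.56 TPM), the neurotrophin receptor gene Ngfr (183 ± 9.49 TPM) and Myc (139 ± 6.63 TPM). Sox9, a crest factor also of cartilage, stood at 12.4, 10.7 and 8.87 TPM. The crest factors Ets1, Zic1 and Sox8 stood at 9.56 ± 1.495, 4.22 ± 0.911 and 3.55 ± 0.553 TPM, and Pax3 and Erbb3 stood near the limit at 1.19 ± 0.176 and 1.31 ± 0.230 TPM. Other factors of the early crest and its border, Sox10, Foxd3, Pax7, Msx1 and Dlx5, had no read in any of the 3 libraries. For Sox10 and Foxd3, 3 reads over the 3 libraries, the limit that a count of 0 allows, would be 0.0789 and 0.0934 TPM. The regulators of the crest's transition to migrating cells were low, with Snai2 at 0.395 ± 0.171, Snai1 at 0.262 ± 0.348 and Twist1 at 0.0544 ± 0.0943 TPM. Tfap2a, of the same list, stood at 0.197 ± 0.208 TPM. Of the MYC family, Mycn, the gene amplified in many human neuroblastomas, stood at 34.5, 31.1 and 35.6 TPM. Myc was above Mycn in each library, by 4.13 ± 0.316 times.

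**Figure D2:**
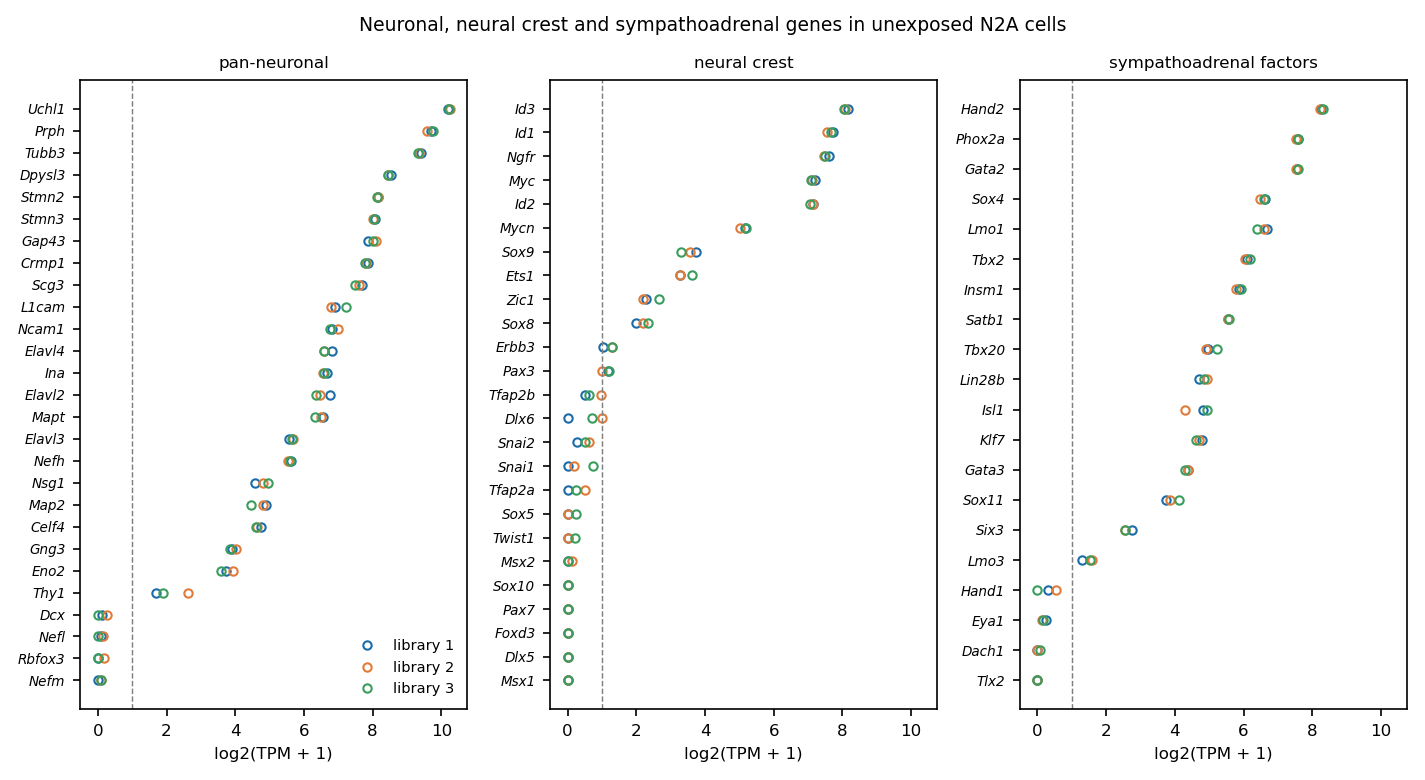
Level of the genes shown as log2(TPM + 1) (horizontal axis) for the pan-neuronal, neural crest and sympathoadrenal lists (genes on the vertical axes, by mean), with 1 circle per unexposed batch 1 library and a dashed line at 1 TPM. Sox10, Pax7, Foxd3, Dlx5, Msx1 and Tlx2 sit at 0 in the 3 libraries, while Hand2, Phox2a and Gata2 sit above 100 TPM.

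Hox genes, which mark position along the body axis, were present from a single cluster. Of 39 genes 5 were present (12.8%, against 53% of all protein-coding genes). All 5 were among the 9 of the HoxC cluster on chromosome 15. None was among the 11 HoxA, 10 HoxB and 9 HoxD genes. Hoxc10 stood at 33.1, 34.1 and 28.8 TPM, Hoxc6 at 24.4, 22.0 and 22.9 TPM and Hoxc9 at 16.1, 19.4 and 17.4 TPM, with no overlap between the 3 genes. Hoxc4 and Hoxc8 were low, at 4.04 ± 0.947 and 1.41 ± 0.638 TPM. The summed level was 78.9 ± 2.73 TPM for HoxC, 0.839 ± 0.346 for HoxB, 0.424 ± 0.364 for HoxD and 0.101 ± 0.175 for HoxA.

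The catecholamine pathway was present from tyrosine to noradrenaline, and the step to adrenaline was not. Th, tyrosine hydroxylase, which makes L-DOPA, was the lowest enzyme of the path at 5.82, 5.61 and 8.44 TPM. Gch1, which supplies its cofactor tetrahydrobiopterin, stood at 68.3 ± 3.11 TPM. Ddc, which makes dopamine, stood at 21.5, 13.8 and 20.1 TPM, and Dbh, which makes noradrenaline, at 28.5, 29.4 and 23.6 TPM, each above Th in every library. Slc18a2, the vesicular monoamine transporter VMAT2, stood at 55.3 ± 3.14 TPM, against 1.42 ± 1.16 TPM for Slc18a1. The methyltransferase that makes adrenaline, Pnmt, the noradrenaline and dopamine transporters Slc6a2 and Slc6a3, and Maob had no read. For Pnmt, a short transcript, 3 reads would be 0.209 TPM.

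Other transmitter systems were present in part. Of 15 cholinergic genes 6 were present (40%, against 53% of all protein-coding genes). They were led by the nicotinic receptor subunit Chrna3 of autonomic ganglia (60.1, 61.7 and 53.4 TPM) and Chrna7 (17.8 ± 2.17 TPM). Acetylcholinesterase, Ache, stood at 8.99 ± 1.04 TPM, whereas choline acetyltransferase, Chat, stood at 0.0473 ± 0.0820 TPM and the vesicular and choline transporters Slc18a3 and Slc5a7 had no read. Both tryptophan hydroxylases of serotonin synthesis were present, Tph1 at 19.5, 17.4 and 18.01 TPM and Tph2 at 7.87, 8.19 and 9.60 TPM, with Tph1 higher in each library. The serotonin transporter Slc6a4 stood at 0.103 ± 0.0143 TPM. The sympathetic cotransmitter Npy stood at 46.7, 47.7 and 44.9 TPM and the peptide precursor Cartpt at 16.98, 24.95 and 26.7 TPM. Only 5 of 22 genes of glutamate and GABA signaling were present (22.7%, against the same 53%). Among them the kainate receptor subunit Grik5 stood at 34.2 ± 2.42 TPM. The vesicular glutamate transporter Slc17a6 and the GABA-making Gad1 had no read. Voltage-gated channels were present in 18 of 29 cases (62.1%, against 53% of all protein-coding genes), led by the potassium channel Kcnh2 (49.1 ± 2.30 TPM), the pacemaker channel Hcn2 (39.3 ± 1.61 TPM) and the sodium channel Scn8a (28.7 ± 3.45 TPM) with its beta subunit Scn3b (25.2 ± 2.74 TPM).

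**Figure D3:**
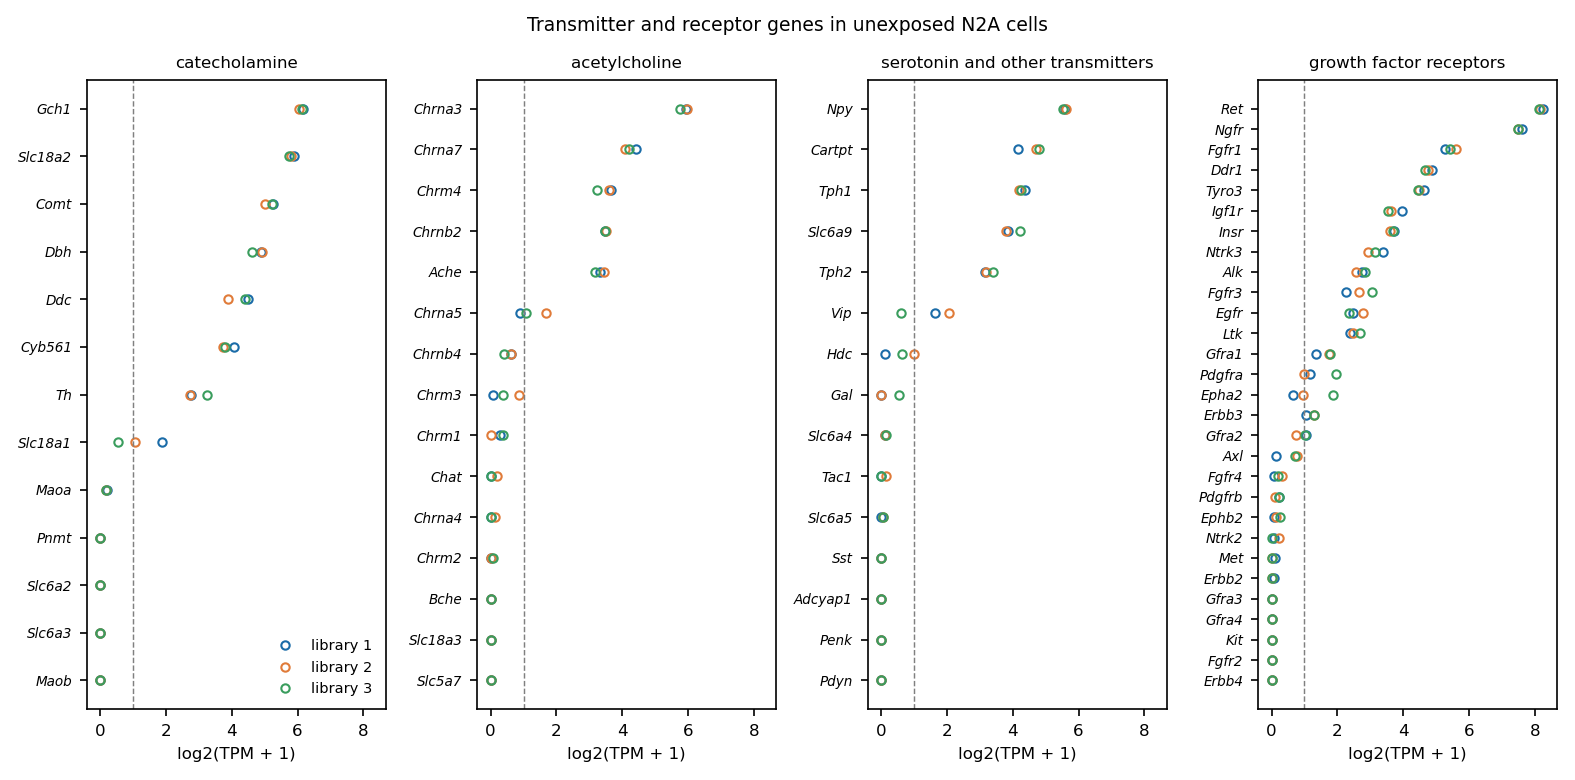
Level of the genes shown as log2(TPM + 1) (horizontal axis) for the catecholamine, acetylcholine, serotonin and other transmitter, and growth factor receptor lists, with 1 circle per unexposed batch 1 library and a dashed line at 1 TPM. Th sits lowest of the enzymes from tyrosine to noradrenaline, and Ret sits highest of the receptors at 277 to 305 TPM.

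Of 30 growth factor receptors 17 were present (56.7%, near the 53% of all protein-coding genes). Ret, the receptor tyrosine kinase for GDNF-family ligands in the sympathetic and enteric lineages, led them at 305, 284 and 277 TPM. The GPI-anchored coreceptors that present these ligands to RET were low, with Gfra1 at 2.11 ± 0.491 and Gfra2 at 0.930 ± 0.214 TPM, and Gfra3 and Gfra4 had no read. Of the neurotrophin receptors, Ngfr stood at 194, 177 and 177 TPM, Ntrk3 (TrkC) at 7.995 ± 1.34 TPM and Ntrk2 (TrkB) at 0.0722 ± 0.0826 TPM. Alk, the kinase mutated in part of human neuroblastomas, stood at 5.67, 4.92 and 6.08 TPM, and Kit and Erbb4 had no read.

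RET is made with 2 alternative C-terminal ends, RET9 and RET51, named for the residues that follow the shared part. Both were present. Their coding ends are shown because the 2 listed Ret transcripts differ in them, in the untranslated parts that follow and at the 5′ end. The ends lie on the minus strand of chromosome 6 in GRCm38, RET9 at chr6:118155259-118155287 in its exon 19 and RET51 at chr6:118153856-118154010 in exon 20 of the other transcript. They are written from 5′ to 3′ of the mRNA, without the stop codon, with no base in capitals since nothing in them is compared.
Ret 9 end: gtagaatttcacatgcatttactagattc
Ret 51 end: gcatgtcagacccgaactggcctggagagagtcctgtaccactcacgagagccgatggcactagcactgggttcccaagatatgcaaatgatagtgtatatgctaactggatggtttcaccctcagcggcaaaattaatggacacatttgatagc
The transcript with the RET9 end stood at 222, 207 and 200.9 TPM and the transcript with the RET51 end at 83.2, 76.9 and 76.4 TPM. RET9 made up 72.8, 72.9 and 72.4% of both, with little spread between the libraries. The 2 transcripts differ by 2821 bases at the 3′ end and 585 bases at the 5′ end. Their shares thus do not rest on reads from the coding ends alone.

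Cell cycle genes were present in 34 of 38 cases (89.5%, against 53% of all protein-coding genes), with a median of 106 TPM. Of them 21 reached 100 TPM, as did 7.65% of all protein-coding genes. Cdk1, the mitotic kinase, stood at 606, 579 and 531 TPM, Top2a, a topoisomerase of dividing cells, at 405, 420.3 and 432 TPM and the replication clamp Pcna at 401 ± 17.9 TPM. Within the G1 families the levels were uneven. Cdk4 stood at 729, 721 and 646 TPM and Cdk6 at 0.128 ± 0.0756 TPM. Of the D cyclins, Ccnd1 stood at 177 ± 6.57 TPM, higher than Ccnd3 by 5.19 ± 0.697 times, and Ccnd2 at 0.0360 ± 0.0381 TPM. Among the inhibitors, Cdkn2a stood at 102, 104 and 107 TPM and its neighbor Cdkn2b at 0.779 ± 0.718 TPM, with Cdkn1b at 86.9 ± 6.96 and Cdkn1a at 40.01 ± 1.12 TPM. The tumor suppressor Trp53 stood at 132 ± 8.47 TPM and Rb1 at 8.23 ± 2.88 TPM. Cdk4, Pcna, Ccnd1, Ccnd3, Trp53 and Rb1 share sequence with other genes in the tables.

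Of 26 neural progenitor genes 10 were present (38.5%, against 53% of all protein-coding genes), with a median of 0.132 TPM. The RNA-binding protein Lin28a, which blocks let-7 maturation, led them at 98.7, 98.2 and 94.7 TPM, and its relative Lin28b stood at 27.3 ± 2.13 TPM, lower by 3.57 ± 0.315 times. Musashi-1, Msi1, stood at 45.2 ± 5.63 TPM and Pax6 at 17.4, 13.97 and 13.8 TPM. Sox2, Sox3, Neurog1, Neurog2, Otx2 and Olig2 had no read, and for Sox2 3 reads would be 0.107 TPM. Hes1 and Notch1 of the Notch pathway stood at 0.0489 ± 0.0848 and 0.191 ± 0.0531 TPM. Pluripotency genes were near 0 in 8 of 10 cases, with Klf4 at 8.98 ± 1.13 TPM, Nanog, which shares sequence with copies, at 1.08 ± 0.428 TPM and Pou5f1 at 0.173 ± 0.0239 TPM.

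Human neuroblastoma lines are sorted into an adrenergic and a mesenchymal state, and 10 of 20 mesenchymal-state genes were present here (50%, near the 53% of all protein-coding genes). The list's sum of 1984 ± 27.3 TPM came mostly from Vim. Fn1, fibronectin, stood at 86.7 ± 4.33 TPM, Tead1 at 37.7 ± 0.740 TPM and Nr3c1, the glucocorticoid receptor, at 19.9 ± 0.818 TPM. Transcription factors and cofactors of the list lay on both sides of 1 TPM. Fosl2 stood at 9.60 ± 0.771, Smad3 at 2.99 ± 1.12 and Maml2 at 1.25 ± 0.430 TPM, whereas Prrx1 stood at 0.0779 ± 0.0346, Runx1 at 0.0323 ± 0.0322, Fosl1 at 0.645 ± 0.197 and Yap1 at 0.373 ± 0.375 TPM. Wwtr1, the YAP relative TAZ, stood at 5.98 ± 0.441 TPM.

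Markers of other cell types were at or near 0. None of 10 epithelial markers was present, and the 10 together came to 1.01 ± 0.162 TPM. Of 10 macrophage markers 7 had no read and 1, Cd68, a lysosomal protein gene, stood at 1.82 ± 0.450 TPM from 6 to 8 reads. Of the glial markers Mbp stood at 2.60 ± 1.03 TPM, while Sox10, Aqp4, Olig1 and Olig2 had no read. The 12 glial markers summed to 6.84, 5.38 and 9.62 TPM. Pecam1 and Vwf were the 2 endothelial markers present, at 4.76 ± 0.809 and 1.97 ± 1.40 TPM, with Cldn5 and Kdr at 0. Of 8 melanocyte markers only Mitf reached the limit, at 1.004 ± 0.138 TPM, and of 8 erythroid markers only Alas2, at 1.98 ± 0.613 TPM. Single genes stood out from their lists. Fbln1, a matrix protein gene of the fibroblast list, stood at 229.9, 215 and 209.8 TPM, but Col1a1, Col1a2 and Col3a1 stood between 0.0262 and 0.182 TPM. Myh3, the embryonic myosin heavy chain of the muscle list, stood at 54.8, 50.03 and 53.1 TPM while Myod1 and Myog had no read, and 88.9% of its words were unique.

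**Figure D4:**
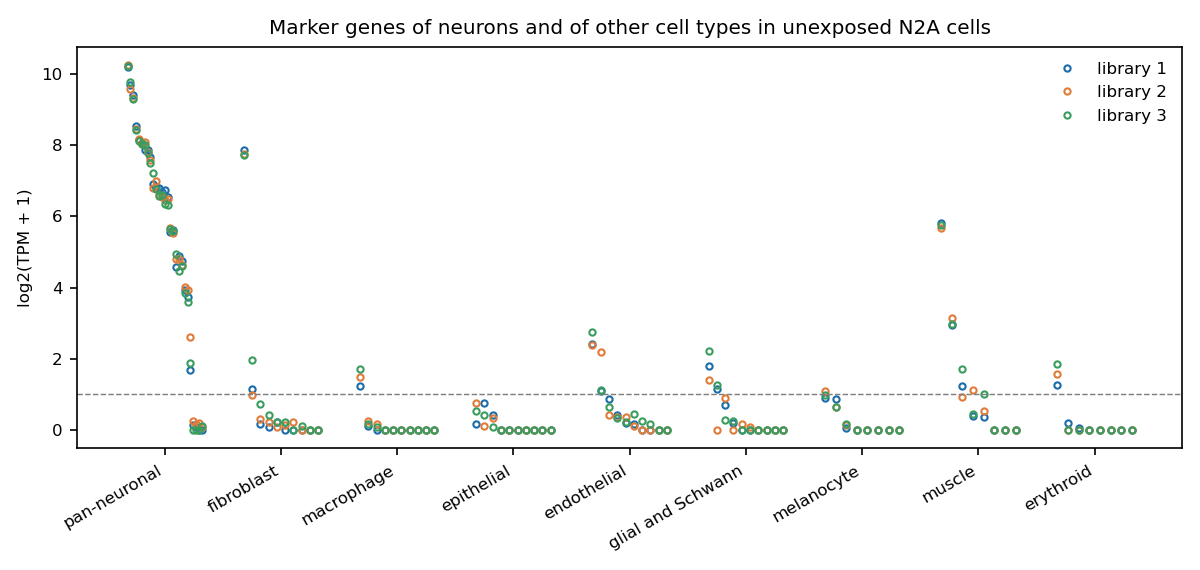
Level of the marker genes shown as log2(TPM + 1) (vertical axis) in the pan-neuronal list and 8 lists of other cell types (horizontal axis), with 1 circle per gene and unexposed batch 1 library, ordered by mean within a list, and a dashed line at 1 TPM. Outside the pan-neuronal list only Fbln1 and Myh3 lie above 10 TPM.

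Glycolytic genes were present in 21 of 23 cases (91.3%, against 53% of all protein-coding genes), and 13 shared reads with copies. Ldha, lactate dehydrogenase A, stood at 1636, 1627 and 1569 TPM, whereas Ldhb had no read, and 3 reads would be 0.180 TPM. Among phosphofructokinases Pfkp led, above Pfkl by 2.96 ± 0.242 times, and Hk1 was above Hk2 by 2.97 ± 0.0832 times. The 41 nuclear genes of oxidative phosphorylation were all present, from Cycs at 65.4 ± 2.05 TPM to Atp5b at 2768 ± 70.4 TPM. Of the 25 translation factors, also all present, the neuronal and muscle elongation factor Eef1a2 stood at 322 ± 6.49 TPM, and Eef1a1 was 25.6 ± 0.904 times higher. Of 27 chaperones 24 were present (88.9%, against the same 53%). Hsp90ab1, Hspa8 and Hsp90aa1 stood at 3240 ± 50.4, 1832 ± 69.3 and 1555 ± 69.2 TPM. The stress-inducible pair Hspa1a and Hspa1b, which share most of their sequence, stood at 0 and 0.0535 ± 0.0472 TPM.

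Pyruvate kinase, the last enzyme of glycolysis, is made from Pkm with either of 2 mutually exclusive exons, M1 of adult muscle and brain and M2 of embryonic and dividing cells. Both forms were present in similar amounts. The M1 exon lies at chr9:59675029-59675195 and the M2 exon at chr9:59675568-59675734, on the plus strand in GRCm38, each exon 9 of 11 in its transcript and each 167 bases of coding sequence. Capitals mark the 64 positions at which the exons differ.
Pkm M1 exon: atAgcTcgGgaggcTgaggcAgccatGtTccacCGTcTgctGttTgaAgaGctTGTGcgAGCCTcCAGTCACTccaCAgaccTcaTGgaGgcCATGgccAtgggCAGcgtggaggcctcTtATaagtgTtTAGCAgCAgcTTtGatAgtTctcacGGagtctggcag
Pkm M2 exon: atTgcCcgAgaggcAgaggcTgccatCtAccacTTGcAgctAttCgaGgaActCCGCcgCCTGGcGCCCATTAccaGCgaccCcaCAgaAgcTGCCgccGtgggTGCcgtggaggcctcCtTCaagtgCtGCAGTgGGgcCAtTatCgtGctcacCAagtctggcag
The transcript with M2 stood at 644, 599 and 590.2 TPM and those with M1 at 525, 468 and 495 TPM. M2 made up 55.1, 56.1 and 54.4% of both, and was higher in each library. By estimated reads the M2 share was 60.7% ± 0.997, against 55.2% ± 0.886 by TPM. The listed M1 and M2 transcripts also differ by 186 bases at the 3′ end and 205 bases at the 5′ end, so their shares do not rest on reads from these exons alone.

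Across genes, the dominant transcript, the one with the highest mean share of its gene's TPM, held a median of 68.1% in 7153 genes at 10 TPM or more with at least 2 listed transcripts. It held 90% or more in 22.0% of them and under 50% in 25.7%. The same transcript was highest in the 3 libraries for 83.9% of these genes. This share was 81.8% for protein-coding genes between 10 and 100 TPM, 91.8% between 100 and 1000 TPM and 95.5% from 1000 TPM. The 56 genes listed for known splice forms held 51 at 10 TPM or more, of which App and Srsf7 had a single transcript in the tables. In the other 49 the dominant share ran from 22.4% to 93.8%, with a median of 49.3%. The highest after Cdc42 were those of Tpm3, a tropomyosin (86.97% ± 1.79), and of the alpha-actinins Actn4 (85.4% ± 2.13) and Actn1 (80.3% ± 2.30). The lowest were those of the dynamin Dnm2 (22.4% ± 1.49) and the splicing regulator Mbnl1 (23.03% ± 5.18). Dominance was unsteady for Dnm1, the neuronal dynamin, at 66.7, 48.6 and 32.7%, and for Numb-204, at 43.2, 49.8 and 74.05%.

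Transcript forms known from neurons are listed for Snap25, Cdc42, Clta and Cltb. SNAP-25, the membrane SNARE of exocytosis, is made with exon 5a early in development and in endocrine cells or with exon 5b in mature neurons. Exon 5a lies at chr2:136769743-136769860 and exon 5b at chr2:136770057-136770174, on the plus strand, 118 bases each. Capitals mark the 31 positions at which they differ.
Snap25 a exon: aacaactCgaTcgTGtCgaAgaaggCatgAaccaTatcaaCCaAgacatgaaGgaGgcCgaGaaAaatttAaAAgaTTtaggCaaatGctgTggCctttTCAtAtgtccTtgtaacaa
Snap25 b exon: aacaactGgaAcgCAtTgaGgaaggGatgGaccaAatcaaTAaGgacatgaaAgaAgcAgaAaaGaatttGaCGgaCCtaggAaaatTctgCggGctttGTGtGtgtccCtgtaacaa
The 5b transcript stood at 47.3, 54.1 and 51.2 TPM and the 5a transcript at 43.98, 43.5 and 32.3 TPM. The 5b form made up 51.8, 55.5 and 61.3% of both. By estimated reads the 5b share was 75.1% ± 3.58, against 56.2% ± 4.81 by TPM. The 5b transcript is also listed with a 3′ end 1077 bases longer, and the exon and the 3′ end cannot be told apart.

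CDC42, a small GTPase of cell polarity, ends in a form found in all tissues or in a form of brain, which differ in their lipid-anchored tails. Their coding ends lie on the minus strand of chromosome 4, the ubiquitous one at chr4:137321106-137321192 and the brain one at chr4:137322533-137322619. Both are 87 bases without the stop codon, and capitals mark the 30 positions at which they differ.
Cdc42 ubiquitous end: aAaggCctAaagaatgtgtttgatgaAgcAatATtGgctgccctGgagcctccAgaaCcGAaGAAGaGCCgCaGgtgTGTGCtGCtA
Cdc42 brain end: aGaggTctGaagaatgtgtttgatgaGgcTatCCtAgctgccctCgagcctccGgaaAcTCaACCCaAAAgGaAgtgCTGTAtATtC
The ubiquitous form stood at 515, 503 and 447 TPM and the brain form at 24.4, 32.6 and 38.4 TPM. The brain form thus made up 4.53, 6.09 and 7.90%, and the ubiquitous form was higher in each library. The 3′ ends of the transcripts lie 2066 bases apart, so the share does not rest on reads from the coding ends alone.

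The clathrin light chains gain neuron-specific exons near the 3′ end of the coding sequence. Clta has a first one of 54 bases at chr4:44030215-44030268 and a second one of 36 bases at chr4:44031400-44031435 on the plus strand. Cltb has one of 54 bases at chr13:54597026-54597079 on the minus strand. They are printed because the transcripts compared differ in them, with no base in capitals.
Clta first neuronal exon: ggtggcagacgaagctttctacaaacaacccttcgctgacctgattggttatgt
Clta second neuronal exon: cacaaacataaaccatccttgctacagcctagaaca
Cltb neuronal exon: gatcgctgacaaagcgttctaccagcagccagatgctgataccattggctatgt
The first Clta exon was in 16.4, 10.9 and 10.3% of the TPM of transcripts that span it and the second in 6.16, 5.12 and 3.88%, from transcripts whose 3′ ends differ by 1 base. Clta-206, without either, held 77.5% ± 2.69 of the gene. The Cltb exon was in 31.3, 27.8 and 19.2%, and its transcript is listed with a 3′ end 1184 bases shorter than the main transcript without it, so that exon and 3′ end cannot be told apart. By estimated reads the Cltb share was 13.6% ± 3.12, against 26.1% ± 6.25 by TPM.

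Rac1, another small GTPase, has an extra exon of 57 bases that makes the fast-cycling form RAC1B. It lies at chr5:143509597-143509653 on the minus strand as exon 4 of its transcript.
Rac1b exon: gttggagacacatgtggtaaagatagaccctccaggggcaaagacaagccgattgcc
The transcript with it was given 282, 282 and 272 TPM, or 58.8, 61.9 and 62.3% of the transcripts that span the exon. Most of the rest was a processed transcript without the exon, at 34.9% of the gene, and the only coding transcript listed without it has a 3′ end 1848 bases longer. No listed coding transcript joins the shorter end to the lack of the exon, so that exon use and the 3′ end cannot be told apart in this share. By estimated reads the share with the exon was 82.0% ± 1.52, against 61.0% ± 1.89 by TPM.

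**Figure D5:**
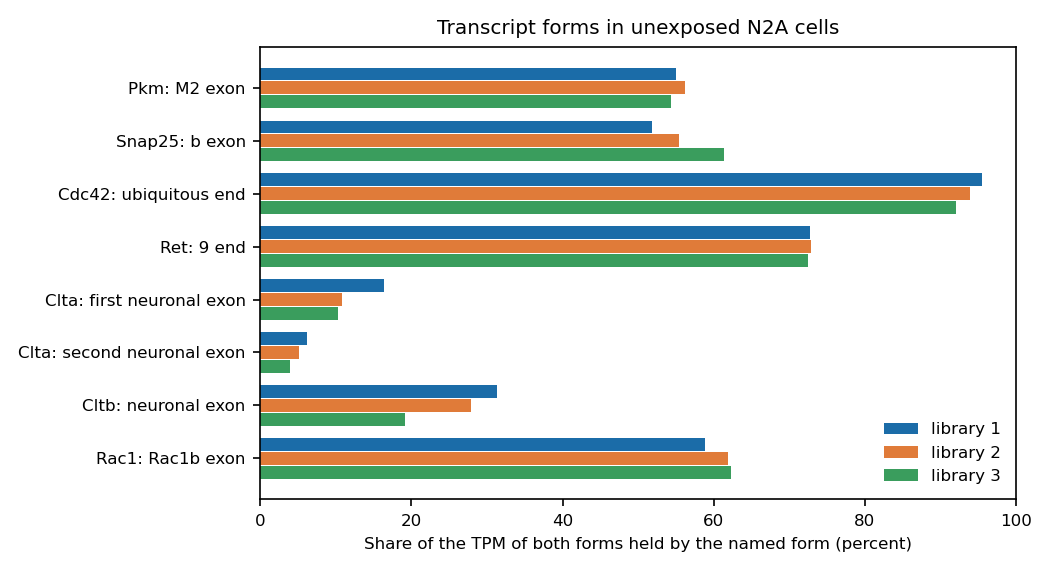
Share of the TPM of both forms held by the named form (percent, horizontal axis from 0 to 100) for 8 splice choices (vertical axis), with 1 bar per unexposed batch 1 library. The ubiquitous Cdc42 end holds 92.1 to 95.5%, the RET9 end 72.4 to 72.9%, and the Clta neuronal exons at most 16.4%.

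The regulators of such exons were present from both the neuronal and the non-neuronal side. Ptbp1, the repressor of neuronal exons in non-neuronal cells, stood at 452, 421 and 441 TPM, and its neuronal relative Ptbp2 at 77.5, 111 and 86.8 TPM, lower by 4.90 ± 1.03 times. Srrm4, which activates neuronal microexons, stood at 14.8, 16.98 and 17.5 TPM and its relative Srrm3 at 32.2, 39.96 and 44.1 TPM. Celf3 (160 ± 18.5 TPM) and Nova1 (27.3 ± 3.03 TPM), also neuronal, were present, Rbfox2 stood at 37.8 ± 0.566 TPM, and the epithelial regulator Esrp1 had no read. In all 23 of 29 splicing regulators were present (79.3%, against 53% of all protein-coding genes).

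For 498 of the 7126 protein-coding genes in the isoform set (6.99%) the dominant transcript was one annotated as not coding. Their share was 6.86% of genes at 10 to 100 TPM, 7.28% at 100 to 1000 TPM and 9.82% from 1000 TPM. The 10 at the highest level were Ppia, Rpsa, Rpl14, Tpt1, Eef1b2, Rpl35, Serbp1, Set, Rps16 and Gapdh. In Ppia, cyclophilin A, a transcript annotated as a target of nonsense-mediated decay held 61.4, 68.6 and 65.9% of the gene. In Gapdh the retained-intron transcript Gapdh-206 held 60.1, 69.9 and 61.9%, and coding transcripts together held 20.8%. In the ribosomal genes Rpsa and Rpl35 such transcripts held 75.4% and 75.4%. The 10 transcripts are short, from 541 bases for Rpl35 to 1101 for Rpsa, and all 10 genes share sequence with copies, with unique words from 11.2% in Rpl35 to 92.3% in Serbp1. Over all protein-coding genes, transcripts annotated as coding held 88.0% ± 0.894 of the TPM, retained introns 4.99% ± 0.561, processed transcripts 3.82% ± 0.275 and targets of nonsense-mediated decay 3.22% ± 0.0611. Of the splice-form list, Map4-207, a processed transcript, and Ank3-235, with a retained intron, were the 2 dominant transcripts that do not code, at 35.6% ± 6.05 and 24.02% ± 5.54.

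Imprinted genes were present in 12 of the 21 in the tables (57.1%, near the 53% of all protein-coding genes). Gnas, which encodes the stimulatory G protein alpha subunit, stood at 1567, 1456 and 1426 TPM, with Gnas-208 holding 67.97% ± 0.604, and Mest at 519, 486 and 469.7 TPM. Peg3 and Peg10 stood at 72.9 ± 5.52 and 64.98 ± 1.84 TPM, while Igf2 was at 0.0533 ± 0.0922 TPM and Ndn, Magel2 and Plagl1 had no read. Antigen presentation genes were present in 15 of 20 cases (75%, against the same 53%). B2m, the light chain of class I molecules, stood at 342, 311 and 320.5 TPM and the class I heavy chains H2-D1 and H2-K1 at 158 ± 3.09 and 115 ± 5.21 TPM, while the class II genes H2-Aa and H2-Ab1 and their activator Ciita had no read. On the sex chromosomes, Kdm5d, a Y-linked demethylase gene, stood at 11.3, 12.4 and 13.6 TPM and Uty at 0.792, 1.40 and 2.68 TPM, whereas the Y-linked Ddx3y and Eif2s3y stood at 0.135 ± 0.234 and 0.183 ± 0.265 TPM and Usp9y, Sry, Zfy1 and Zfy2 had no read. Of the listed long noncoding RNAs only 2 are in the tables, 2810025M15Rik at 109.8 ± 3.64 TPM and Snhg11 at 1.13 ± 0.313 TPM, and the others were not analysed here.

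The spread between libraries fell with level. The SD of log2(TPM + 1) had a median of 0.128 over present genes, 0.257 between 1 and 10 TPM, 0.112 between 10 and 100, 0.0676 between 100 and 1000 and 0.0480 from 1000 TPM. For genes that do not share reads, the SD was a median 19.6% of the mean between 1 and 10 TPM and 4.60% between 100 and 1000 TPM. Genes between 1 and 10 TPM that share reads spread more, at 0.356, than those that do not, at 0.220. The 10 genes at 10 TPM or more with the largest spread were Gm10241, Gm7332, Gm11032, Gm48252, Gm14303, Gm26602, Gm4202, Gm6851, Gm8034 and Gm17604, all sharing sequence and each at 0 or nearly 0 in at least 1 library. Among genes that do not share reads, chosen after their values were seen, the variable coding gene with the most reads was Zbtb18, a transcriptional repressor of the developing nervous system. It stood at 42.3, 59.9 and 125 TPM from 519, 487 and 405 reads, with the highest TPM in library 3, where it had the fewest reads. The libraries held 8322570, 8257770 and 6460010 estimated reads, so the fewest Zbtb18 reads came from the smallest library. The spread of Zbtb18 in TPM was thus not matched by its reads, and the source of that spread was not tested.

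The 2 unexposed libraries of batch 2 were set beside the members, with no test, since batch and library cannot be told apart in them. Library 1 of batch 2 stood apart. Pseudogenes held 25.2% of its TPM and 9.72% in library 2, Gm14303 alone was given 10326 TPM, and Uchl1 stood at 5765 TPM against 1087 in library 2. Of 650 listed genes, 627 were on the same side of 1 TPM in the batch 2 mean. The same share over all genes was not computed. Since 350 of the 650 stood at 5 TPM or more in batch 1, away from the limit, the count says little about the lists. Those of the identity lists that crossed, Pax3, Erbb3 and Hoxc8, were all within 0.5 TPM of the limit in batch 1. Hand2 stood at 137 and 302 TPM in the 2 libraries, Ret at 100.2 and 215 and Prph at 335 and 758 TPM, so that library 1 lay below the members and library 2 nearer to them. The RET9 end made up 76.6 and 76.5%, M2 46.4 and 58.8% of Pkm, and the 5b exon 38.6 and 38.6% of Snap25, the last below the lowest member of 51.8%. The Cltb exon was in 71.4 and 28.4%, the first of these far above the members.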

How the data were processed

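Unexposed N2A cells were lysed beside the exposed wells, and polyA RNA libraries were made by the authors with NEBNext Ultra II kits. The deposited tables hold, for each of 107368 transcripts, estimated counts from Salmon and TPM, which the authors' run scaled by effective transcript length to the same total per library (aligner version, options and transcript release: not given in the sources used here). The deposited lengths and effective lengths, a column of another kind, served for the limits of a count of 0. The authors' columns were summed over the transcripts of a gene by identifier without version in GENCODE mouse release 21 (GRCm38), which holds 98.6% of the transcripts. The unmatched ones held 0.736 to 0.752% of TPM. Most long noncoding RNAs and mitochondrial rRNAs were not analysed here.

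No groups were compared and no test was run. Values are means ± SD of 3 libraries, and the limits of a count of 0 cover counting error only (3 reads over the 3 libraries, by the longest transcript). The 3 libraries differed from each other by more than counting noise (chi-square per gene 1.86 to 2.37, for 1 under counting noise) and were counted as 3. The members, the 33 gene lists and the splice forms were chosen with earlier results of these data known. Named genes are the 15 nuclear and 5 mitochondrial mRNAs, the 10 noncoding genes and the 10 most variable genes by rank, the first 4 of each list with its absent members, and the splice-form genes at 10 TPM or more. Other named list members, the ratios, the 8 splice choices and the genes that do not share reads were chosen after their values were seen. Aldoa and Atp5o have 2 gene identifiers, and the higher was kept. Shared sequence was counted in 31-base words over all quantified transcripts. Exons were read from the release's transcript sequences. Some members counted in the lists and ranks are not reported here by name or drawn. The sums were tested on simulated data. Other level thresholds, estimated counts in place of TPM, nuclear genes only, other pseudocounts and filters, coding transcripts only and leaving out each library were tried. Python 3.11.15, pandas 2.3.3 and numpy 2.4.6 were used.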

Additional observations from a re-analysis of the deposited data

How the results depend on the processing

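No paired analysis was possible because no groups were compared and no result comes from a test. The count of present genes stayed within 1.5 times under thresholds of 0.5 and 5 TPM, with every library required, with CPM, and with only unique genes (8582), and was 12400 to 12607 with 1 replicate left out. Shares moved with the scale. As a share of estimated counts, ribosomal protein genes held 4.45%, pseudogenes 2.41% and the top 100 genes 17.2%, and over nuclear genes only 14.4%, 8.45% and 25.6%. Leaving out 1 replicate gave 13.6 to 13.8%, 7.98 to 8.16% and 26.8 to 27.1%. The median dominant share was 81.9% by estimated counts, 76.9% among coding transcripts only, and 67.8 to 69.1% with 1 replicate left out. The median spread was 0.137 with a pseudocount of 0.1, 0.143 with no filter, 0.10 from 10 TPM, and 0.0959 to 0.114 with 1 replicate left out. List members present numbered 400 of 650, and 350 to 424 under the alternatives. Of the 33 lists 10 moved by over 1.5 times at 5 TPM and 3 at 0.5 TPM, all but the growth factor receptors with 5 or fewer present members. Without replicate 2 no melanocyte marker and without replicate 3 only 1 pluripotency gene was present. Depth limits genes under about 1 TPM, where a few reads set the level.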
